A study of Mus musculus with 12 samples.

Results

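The S100 alarmin genes of mouse chromosome 3 were followed through the chromatin around 6 of them, S100a8, S100a9, S100a4, S100a6, S100a10 and S100a11. A member was any ATAC-seq peak of the consensus peak table whose centre lay inside one of these genes or within 15 kb of its ends in RefSeq GRCm38, and each peak was given to the nearest of the 6 genes. This found 29 of the 75281 peaks, of which 7 went to S100a8, 8 to S100a9, 2 to S100a4, 3 to S100a6, 5 to S100a10 and 4 to S100a11. In ATAC-seq a transposase inserts adapters where DNA is accessible, so reads over a peak measure how open the chromatin is, not how much RNA or protein is made. All 12 libraries were labelled bone marrow of NZO/HILtJ mice, an inbred strain that becomes obese and diabetic. They formed 4 groups of 3 mice, namely females and males at 3 months and females and males at 18 months, with no treatment or engineered allele named in the labels. The library protocol also describes a sort of CD3e and CD8 positive T cells, whereas the sample labels name bone marrow.

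S100 proteins are small calcium-binding proteins with paired EF-hand motifs, and most of their genes sit together in clusters. S100a8 and S100a9 form the heterodimer calprotectin, an abundant cytosolic protein of neutrophils and monocytes that is released in inflammation, binds metal ions and signals through Tlr4 and the receptor RAGE, encoded by Ager. S100a4 and S100a6 are expressed in many motile and proliferating cells, and S100a10 and S100a11 are partners of annexins at membranes.

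The genes lie on chromosome 3 in 2 separate blocks. S100a4 (bases 90603770 to 90606045), S100a6 (90612894 to 90614414), S100a8 (90669071 to 90670034) and S100a9 (90692630 to 90695721) form the first block, whose 20 peaks span 121 kb. S100a11 (93520496 to 93526288) and S100a10 (93555117 to 93564645) form the second, whose 9 peaks span 49.9 kb. Each gene is described below by its gene-end peak, the most accessible of the peaks that lie inside the gene or have their centre within 3 kb of its ends.

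The 250 bases upstream of 4 start sites are shown because each of these windows lies inside an accessible peak of the gene it belongs to. They are RefSeq GRCm38 sequences, written 5′ to 3′ on the strand of the gene, and span chr3:90668821-90669070 (plus strand) for S100a8, chr3:90695722-90695971 (minus strand) for S100a9, chr3:90612644-90612893 (plus strand) for S100a6 and chr3:93520246-93520495 (plus strand) for S100a11. Capitals mark every match on either strand to short strings of letters known from the binding motifs of C/EBP, PU.1, AP-1, Runx and GATA factors, which are spelled out after the sequences, with N for any base.
S100a8: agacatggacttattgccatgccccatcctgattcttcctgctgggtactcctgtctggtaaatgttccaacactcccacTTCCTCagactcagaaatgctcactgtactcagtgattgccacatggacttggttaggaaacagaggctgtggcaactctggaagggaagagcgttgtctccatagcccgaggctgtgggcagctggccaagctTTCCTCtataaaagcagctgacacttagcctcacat
S100a9: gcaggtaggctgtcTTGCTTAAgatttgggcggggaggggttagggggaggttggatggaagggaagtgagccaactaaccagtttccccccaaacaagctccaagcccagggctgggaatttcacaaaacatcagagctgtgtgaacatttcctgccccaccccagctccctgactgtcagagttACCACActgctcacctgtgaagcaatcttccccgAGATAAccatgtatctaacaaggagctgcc
S100a6: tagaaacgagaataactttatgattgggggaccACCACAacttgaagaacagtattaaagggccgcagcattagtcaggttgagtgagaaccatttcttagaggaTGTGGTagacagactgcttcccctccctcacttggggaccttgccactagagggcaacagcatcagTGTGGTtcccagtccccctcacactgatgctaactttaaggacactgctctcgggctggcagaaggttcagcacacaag
S100a11: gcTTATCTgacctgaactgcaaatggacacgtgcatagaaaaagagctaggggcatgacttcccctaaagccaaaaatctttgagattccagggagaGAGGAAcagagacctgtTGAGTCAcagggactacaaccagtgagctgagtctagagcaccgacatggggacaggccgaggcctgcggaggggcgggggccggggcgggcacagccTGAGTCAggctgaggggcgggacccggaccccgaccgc
S100a8 held the PU.1 core (GAGGAA) at positions -170 and -36 from its start site, a string present in 23.3% of all 32851 promoter windows of that length. S100a9 held the C/EBP string (TTGCNNAA) at -236, a string found in 9.56% of windows. It also held the Runx string (TGTGGT) at -64, found in 14% of windows, and the GATA string (AGATAA) at -30, found in 9.99%. The S100a6 window held the Runx string at -217, -145 and -79. S100a11 held the GATA string at -248, the PU.1 core at -153 and the AP-1 string (TGANTCA), found in 6.75% of windows, at -136 and -38. The NF-kB letters GGGANTTCC, present in 1.43% of windows, were in none of the 4, and S100a9 was the only one of the 4 with the KLF letters CACCC, present in 52.0% of windows. These are matches of letters and not measured binding sites.

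Libraries held 7668099 to 12756647 reads in peaks, and values are given as counts per 1000000 reads in peaks (CPM), with library totals scaled by TMM factors. The 12 libraries came from 6 sequencing runs, and 0 runs held both ages, so the effect of age and the effect of run cannot be told apart. At 18 months all females were in run 14 and all males in run 15. Of 18 T cell genes 13 had a gene-end peak, with sums of 202 to 248.8 CPM per library, and Cd3e, Trbc2, Cd8a, Cd8b1 and Bcl11b had none. Of 20 neutrophil genes 19 had one (all but Elane), with sums of 346 to 513 CPM. The library of the 3-month male BM-253 stood apart from the other 5 of its age at many S100 peaks, so results are given with and without it. It was the only library of run 30, so what is said below of mouse BM-253 cannot be told apart from an effect of that run.

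Most peaks of S100a8, S100a9 and S100a6 were more open at 18 than at 3 months, most of S100a10 and S100a11 did not pass the test, and no S100 peak was called less open. In a model of age and sex fitted to all 75164 peaks that passed a low-count filter (edgeR quasi-likelihood, Benjamini-Hochberg adjusted p below 0.05 counted as called), 15 of the 29 peaks rose, 14 were not called and 0 fell, against 9.43% of all tested peaks called higher and 11.6% called lower. All 29 peaks passed the filter. The log2 fold change was above 0 at each of the 29, from 0.08 to 0.68 with a median of 0.43, while the median over all tested peaks was 0.02. By gene, 5 of 7 peaks rose at S100a8, 5 of 8 at S100a9, 1 of 2 at S100a4, 3 of 3 at S100a6, 1 of 4 at S100a11 and 0 of 5 at S100a10. Without mouse BM-253, 24 of the 29 rose, against 12.0% of all peaks, and all 15 earlier calls were among them. Mouse BM-253 was singled out because it was high among the young at many of these same peaks. Leaving out a high young library raises the age effect by construction, so values without it, here and below, are not separate support. The 4 further peaks within 50 kb of a member gene had log2 fold changes of 0.34 to 0.42, next to 0.44 and 0.54 at the peaks 14.1 and 14.4 kb from S100a4 and S100a9, just inside the limit. In bulk marrow, a larger share of cells with open S100 chromatin and more openness per cell cannot be told apart.

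**Figure D1:**
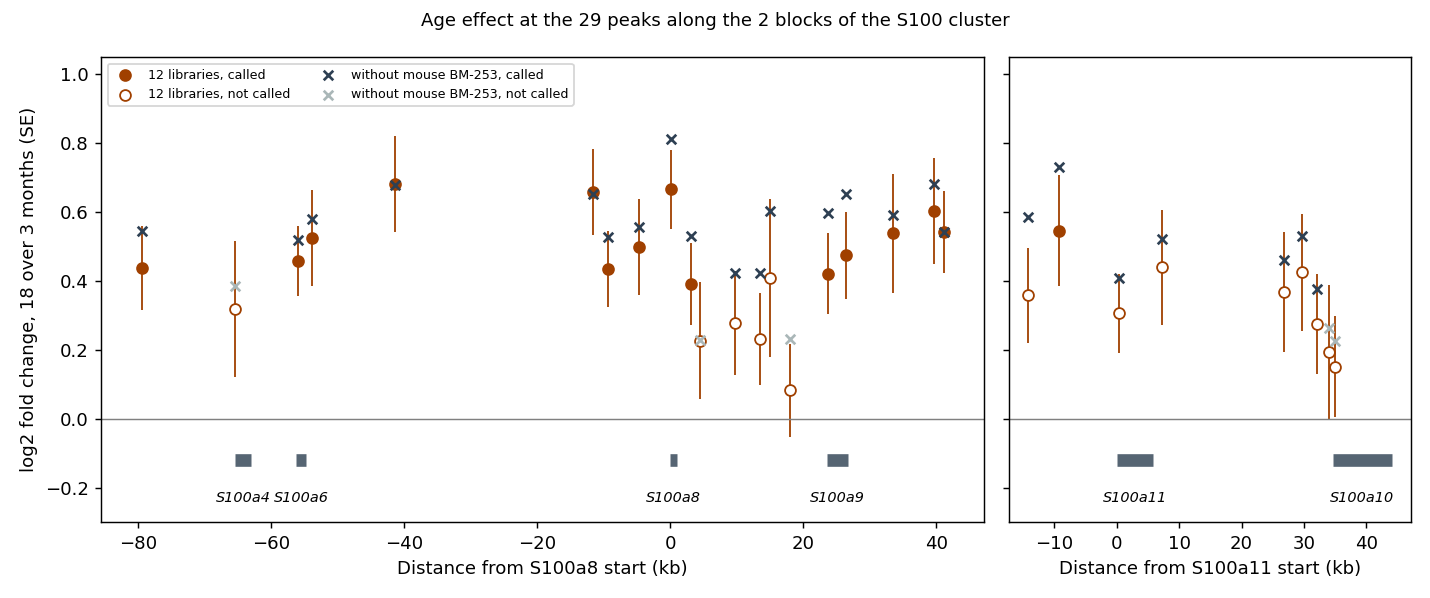
Age effect at the 29 peaks by distance from the S100a8 start (left) or the S100a11 start (right), in kb. Circles are log2 fold changes of 18 over 3 months with SE bars, filled where the adjusted p was below 0.05, and crosses are the same values without mouse BM-253, grey where not called. All 29 circles lie above 0, between 0.08 and 0.68, and bars under the points mark the genes.

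S100a8 encodes one subunit of calprotectin, and its gene-end peak (chr3:90668696-90669670) held the start site. The 18-month females had 40.9, 49.5 and 35.1 CPM and the 18-month males 43.3, 48.2 and 52.6 CPM. At 3 months the females had 21.8, 23.6 and 22.5 CPM and the males 31.2, 47.3 and 26.6 CPM. The 3-month male BM-253, at 47.3 CPM, lay among the 18-month mice, and the other 5 young mice lay below all of the old ones. The peak rose with a log2 fold change of 0.67 ± 0.11 (SE, adjusted p = 1.73e-05, edgeR), and of 0.81 ± 0.09 without mouse BM-253. Of the other 6 peaks of S100a8, the one inside the neighbouring gene S100a7a (chr3:90657089-90657870) ranged from 11.9 to 17 CPM at 18 months (median 14.6) and from 7.99 to 11 CPM at 3 months (median 8.78). The ages did not overlap there, and the log2 fold change was 0.66 ± 0.12 (adjusted p = 9.0e-05, edgeR). Peaks 9.3 and 4.7 kb upstream of S100a8 and 2.2 kb downstream of it rose too, by 0.44, 0.50 and 0.39 on the log2 scale, and the remaining pair, at 0.23 and 0.28, did not pass the test.

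S100a9 encodes the other subunit of calprotectin and lies on the minus strand. Its most accessible peak (chr3:90691534-90693941) covered the 3′ end of the gene. The 18-month females had 52.7, 57.2 and 47.7 CPM there and the males 54.1, 47.7 and 62.2 CPM. The 3-month females had 31.7, 30.7 and 32.2 CPM and the males 39.7, 70.7 and 40.6 CPM. Mouse BM-253, at 70.7 CPM, was the highest of all 12, and the other 5 young mice lay below every old one. The log2 fold change was 0.42 ± 0.12 (adjusted p = 0.00676, edgeR), and 0.60 ± 0.09 without mouse BM-253. The peak over the S100a9 start site (chr3:90694925-90696051), which holds the printed sequence with its C/EBP string, ranged from 37.0 to 56.1 CPM at 18 months (median 44.1) and from 22.9 to 54.3 CPM at 3 months (median 28.2). It rose by 0.48 ± 0.13 (adjusted p = 0.00487, edgeR), by 0.65 ± 0.10 without mouse BM-253, and fell short of the threshold with DESeq2 (log2 fold change 0.47, adjusted p = 0.0970).

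Beyond the S100a9 start, 3 peaks at 6.9, 13 and 14.4 kb rose by 0.54, 0.60 and 0.54 on the log2 scale. The farthest of them (chr3:90709672-90710619) ranged from 15.5 to 19.5 CPM at 18 months (median 18.8) and from 9.71 to 15.1 CPM at 3 months (median 12.2), with no overlap and an SE of 0.12 (adjusted p = 0.000685, edgeR). The 3 peaks between S100a8 and S100a9 that were nearer to S100a9 had log2 fold changes of 0.23, 0.41 and 0.08 and were not called. In each of these 3, mouse BM-253 was the highest young library, and without it the first and second passed the test at 0.42 and 0.60, while the third moved to 0.23 and was not called.

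**Figure D2:**
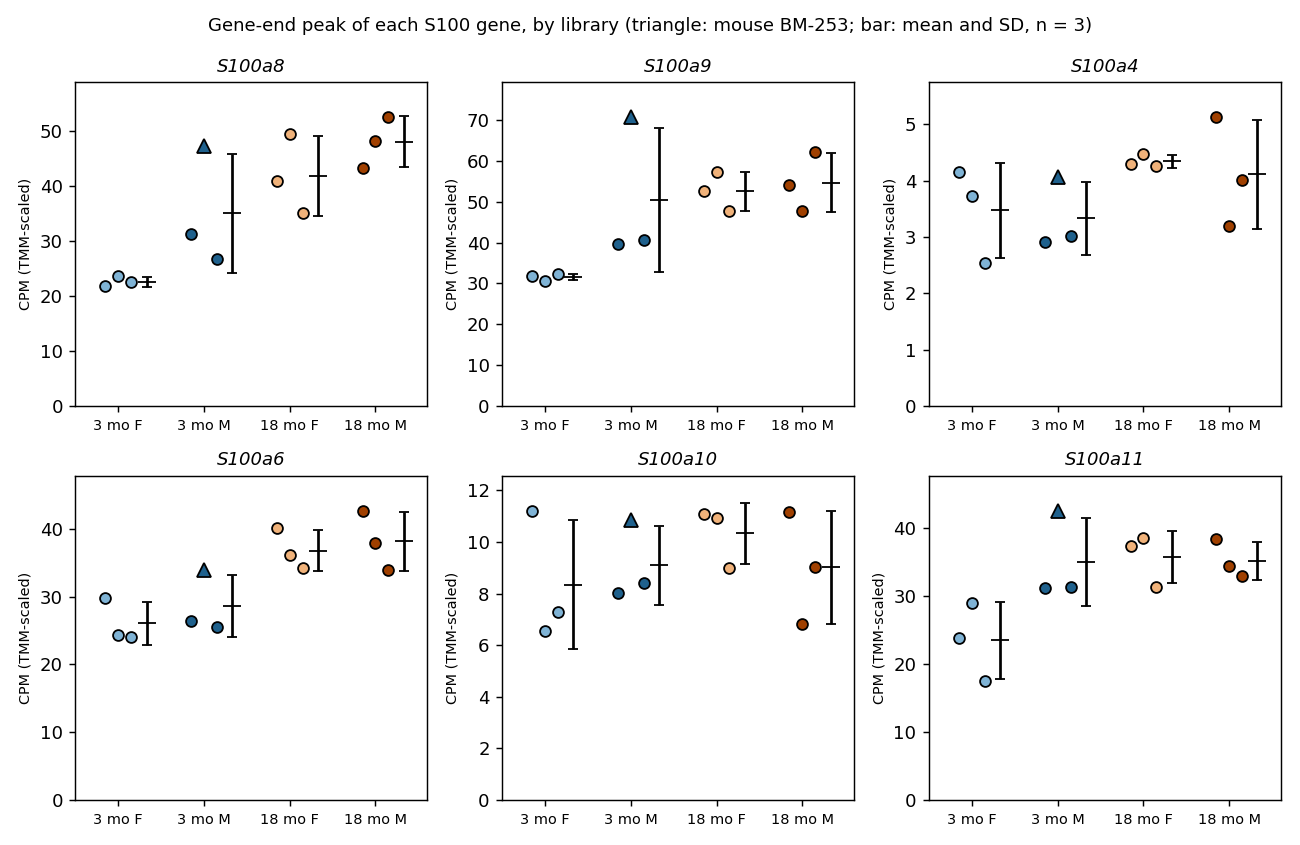
CPM (TMM-scaled) at the gene-end peak of each S100 gene, 1 point per library, in the 4 groups of 3 mice; horizontal marks and bars are the mean and SD, and the triangle is mouse BM-253. At S100a8 and S100a9 the triangle stands at 47.3 and 70.7 CPM, among or above the 18-month mice, and the other 5 young mice lie below them.

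S100a6 encodes calcyclin, and its gene-end peak (chr3:90612161-90614317) held the start site and is also the nearest peak of S100a5. It ranged from 34.0 to 42.7 CPM at 18 months (median 37.0) and from 24 to 33.9 CPM at 3 months (median 26.0). The ages did not overlap, with mouse BM-253 the highest young library at 33.9 CPM, and the log2 fold change was 0.46 ± 0.10 (adjusted p = 0.000727, edgeR). A peak just past the gene (chr3:90615011-90615623) ranged from 9.03 to 11.9 CPM at 18 months (median 9.77) and from 5.69 to 8.24 CPM at 3 months (median 7.07), without overlap, and rose by 0.53 ± 0.14 (adjusted p = 0.00471, edgeR). The third called peak of S100a6 lay 13.4 kb past the gene (chr3:90627419-90628170). This peak held 8.99 to 12.2 CPM at 18 months (median 10.6) and 5.18 to 8.37 CPM at 3 months (median 6.71), and it rose by 0.68 ± 0.14 (adjusted p = 0.000264, edgeR), next to 0.67 at the S100a8 gene-end peak. Without mouse BM-253 the 2 values were 0.68 and 0.81.

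S100a4 encodes a protein linked to cell motility, and its gene-end peak (chr3:90603573-90603824) was the weakest of the 6 gene-end peaks in CPM. It ranged from 3.20 to 5.13 CPM at 18 months (median 4.28) and from 2.53 to 4.15 CPM at 3 months (median 3.37), and the ages overlapped. The log2 fold change of 0.32 ± 0.20 did not pass the test (adjusted p = 0.260, edgeR). The other peak of S100a4, 14.1 kb away and inside S100a3 (chr3:90589195-90590124), rose by 0.44 ± 0.12 (adjusted p = 0.00753, edgeR).

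In the second block, S100a11 had 31.3 to 38.4 CPM at its start-site peak (chr3:93519799-93521989) at 18 months (median 35.8) and 17.5 to 42.5 CPM at 3 months (median 30.0). Mouse BM-253 was again the highest of the 12, and the ages overlapped. The log2 fold change was 0.31 ± 0.12 (adjusted p = 0.0507, edgeR) and passed the test without mouse BM-253, at 0.41 ± 0.10 (adjusted p = 0.000761, edgeR). Without the 3-month female BM-244 it was 0.19 (adjusted p = 0.230, edgeR). Over 20 alternative settings this peak was called in 8, at 0.31 to 0.47, and not in 12, at 0.19 to 0.32. Total counts and offsets smoothed on abundance or peak width were among the settings that called it, and DESeq2 was among those that did not. The peak 9.2 kb upstream of S100a11 was the only one of the 9 called in this block, at 0.55 ± 0.16. S100a10 ranged from 6.83 to 11.2 CPM at its gene-end peak at 18 months (median 9.98) and from 6.55 to 11.2 CPM at 3 months (median 8.22). Old and young mice were interleaved there, with a log2 fold change of 0.15 ± 0.15 (adjusted p = 0.498, edgeR), and the other 4 peaks of S100a10, at 0.19 to 0.43, were not called either. Leaving out single libraries gave 0.07 (without the 3-month female BM-243) to 0.24 (without the 3-month female BM-245) at the S100a10 gene-end peak, none of them called. Without mouse BM-253, 7 of the 9 peaks of this block were called, 3 of them at S100a10, against 17 of 20 in the first block.

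Whether one gene opened more with age than another was tested on the log2 ratio of their gene-end peaks in each library, which does not depend on the scaling. Over the 15 pairs of genes, 0 had a Benjamini-Hochberg adjusted p below 0.05 in a two-sided exact permutation test over all rearrangements of the 6 old and 6 young libraries, and 4 had an unadjusted p below 0.05. S100a8 exceeded S100a10 by 0.53 more at 18 than at 3 months on the log2 scale (exact permutation p = 0.0281, adjusted 0.106), and S100a11 by 0.36 more (p = 0.0281, adjusted 0.106, same exact test). The ratio of S100a8 to S100a9 was higher by 0.23 (exact permutation p = 0.0130, adjusted 0.0974), and that of S100a6 to S100a10 by 0.31 (exact permutation p = 0.0108, adjusted 0.0974). Without the 3-month female BM-243, 2 of the 15 pairs passed. With all peaks of each gene summed in place of the gene-end peak, these 4 differences were 0.25, 0.13, 0.08 and 0.24, with exact permutation p from 0.0887 to 0.240. Genes of the cluster were therefore not shown to differ in their age effect with all 12 libraries.

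Per kb of peak, S100a8 was the most open of the gene-end peaks, at 46.1 ± 6.59 CPM per kb at 18 months (SD, n = 6) and 29.6 ± 9.93 at 3 months. The S100a9 start-site peak followed with 39.5 ± 6.42 and 28.9 CPM per kb, then the S100a9 gene-end peak with 22.3 ± 2.34 and 17 ± 6.31. S100a6 (17.4 ± 1.58 at 18 months), S100a4 (16.8 ± 2.50), S100a11 (16.2 ± 1.38) and S100a10 (14.2 ± 2.53) each differed from the next in that order by less than the larger of their SDs. S100a8 and the S100a9 start-site peak differed at 18 months by about the larger of their SDs. All peaks were read in the same libraries, and SDs across libraries ignore that pairing. Differences in openness per kb between genes were not tested.

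**Figure D3:**
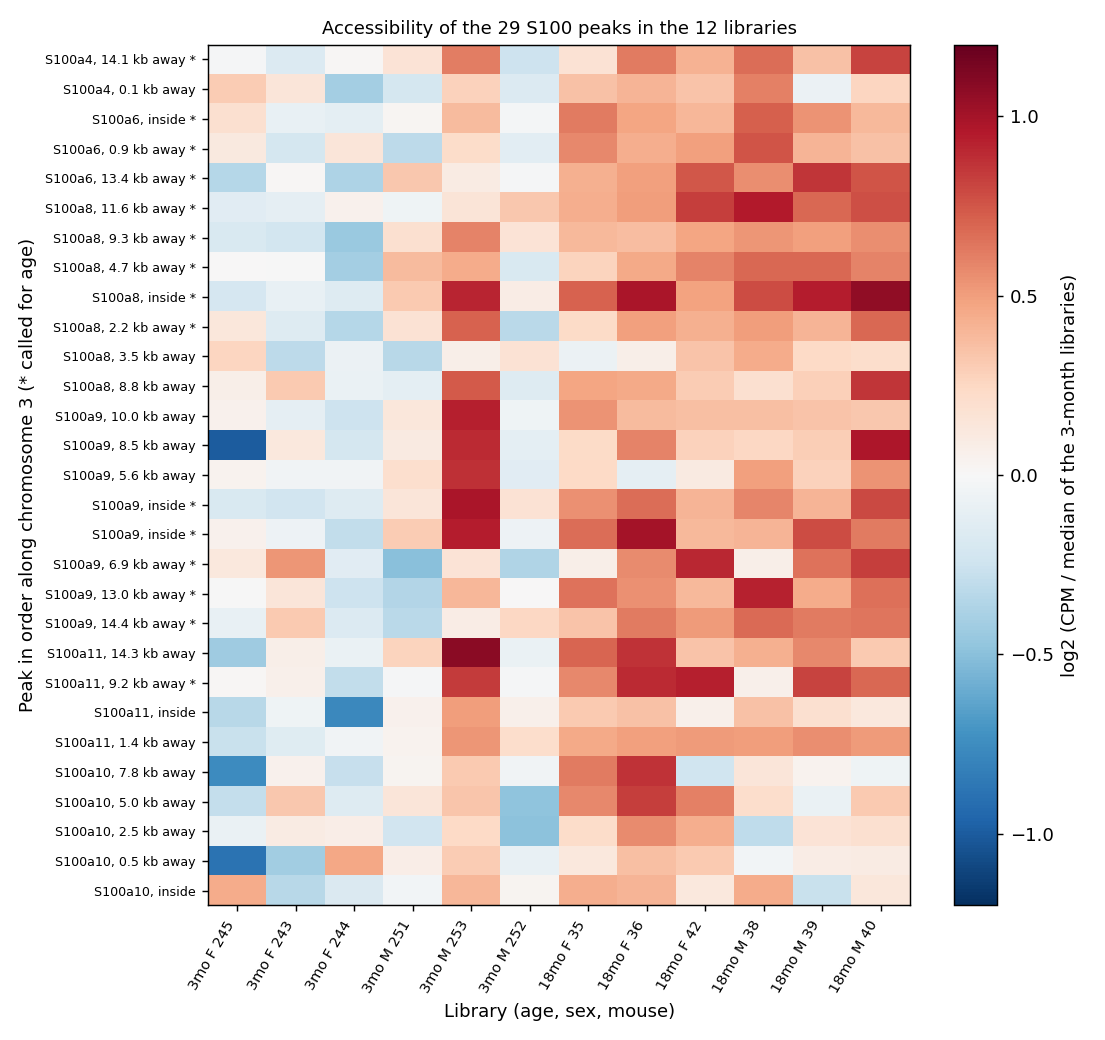
log2 ratio of each library's CPM to the median of the 6 libraries of 3-month mice, for the 29 peaks in order along chromosome 3 (rows) and the 12 libraries by age, sex and mouse (columns). Stars mark the 15 peaks called for age. Mouse BM-253 is the highest young library at 11 of the 15 peaks of S100a8 and S100a9 and at 4 of 4 of S100a11.

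Mouse BM-253 was the highest of the 6 young libraries at 21 of the 29 peaks, against 23.1% of all tested peaks, and the highest of all 12 at 7. It lay above the median of the 18-month libraries at 18 of the 29, against 46.8% of all peaks. The ages were free of overlap at 5 of the 29 peaks with all libraries (all higher at 18 months, against 2.20% of all peaks higher and 5.04% lower) and at 17 without it (4.73% of all peaks). Summed over the 15 peaks of S100a8 and S100a9, mouse BM-253 had 343 CPM, the other 5 young mice 176 to 224 CPM and the old mice 278 to 335 CPM.

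The age effect was then read in each sex, from a model with 1 mean per group. In females 15 of the 29 peaks rose and 0 fell, against 5.70% of all peaks higher and 6.20% lower, with a median log2 fold change of 0.56. In males 8 rose and 0 fell, against 3.21% higher and 8.18% lower, with a median of 0.25, which was 0.48 without mouse BM-253. Of the 8 peaks called in males, 4 were called in females too, and the share of all peaks called in both sexes was not computed. Without the 3-month female BM-244 the female count was 8 (2.33% of all peaks). The male count was 11 without mouse BM-253 (3.25% of all peaks), 4 without BM-38 (1.81%), 3 without BM-39 (1.55%), 3 without BM-40 (1.83%), 1 without BM-251 (1.48%) and 2 without BM-252 (4.73%). The S100a8 gene-end peak rose by 0.89 ± 0.15 in females (adjusted p = 2.67e-05, edgeR) and by 0.45 ± 0.15 in males (adjusted p = 0.0314, edgeR). Over the 7 peaks of S100a8 the male median was 0.31, and 0.60 without mouse BM-253. The S100a9 gene-end peak rose by 0.74 ± 0.15 in females (adjusted p = 0.000323, edgeR) and had a log2 fold change of 0.12 ± 0.14 in males (adjusted p = 0.670, edgeR), which became 0.44 (adjusted p = 0.0171, edgeR) without mouse BM-253. With all libraries the 3 peaks of S100a6 were called in males, at 0.42 to 0.59; 2 of them were called without mouse BM-253, and the counts above without BM-251 or BM-252 leave at most 1 or 2.

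The difference between the sexes did not pass its own test at any of the 29 peaks. The interaction of age and sex was called at 0 peaks with edgeR and at 0 with DESeq2, against 0.00532% of all peaks called with edgeR. An unadjusted p below 0.05 was found at 9 of the 29 with edgeR, against 10.0% of all peaks. The male effect was the smaller at 24 of the 29 peaks, against 51.0% of all peaks, and at 16 of 29 without mouse BM-253, a male, against 50.6%. The lowest p belonged to the peak 14.3 kb upstream of S100a11 (chr3:93505805-93506676), where the male effect was lower by 0.84 on the log2 scale (adjusted p = 0.236, edgeR). Without mouse BM-253, 3 peaks had an unadjusted p below 0.05, against 6.77% of all peaks, and without the 3-month male BM-252, 4 peaks passed the threshold with a smaller male effect, against 1.84% of all peaks.

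Males and females were also compared over both ages. No S100 peak was called for sex (0 of 29 with edgeR and 0 with DESeq2), against 0.162% of all peaks called with edgeR. An unadjusted p below 0.05 was found at 7 of the 29 for sex with edgeR, against 7.57% of all peaks. The S100a8 gene-end peak was nearest, with a male minus female log2 difference of 0.40 (adjusted p = 0.215, edgeR). Runs 29 and 31 each held 1 young female and 1 young male, and S100a8 was higher in the male in both, at 31.2 against 23.6 CPM in run 29 and 26.6 against 22.5 CPM in run 31. The male was the higher in both of these runs at 14 of the 29 peaks, against 25.3% of all peaks. Leaving out the 18-month female BM-36, 1 peak was called higher in males, against 0.0266% of all peaks.

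Of the other 8 S100 genes of chromosome 3, 7 had a gene-end peak, 4 rose and 1 fell, with a median log2 fold change of 0.34. For comparison, 5.38% of 15507 genes with such a peak rose and 26.3% fell, with a median of -0.13. The peaks of S100a2, S100a5 and S100a7a are among the 29 described above, so they are not separate evidence. S100a3 rose by 0.34 (adjusted p = 0.0117, edgeR), S100a1 fell by 0.32 (adjusted p = 0.0237, edgeR), and S100a13 and S100a14, at 0.07 and -0.07, did not pass the test.

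Of 14 partners and receptors of S100 proteins, 3 rose and 2 fell, with a median of 0.20, beside the 5.38% and 26.3% of all genes given above. Without mouse BM-253, 7 rose, against 8.22% of all genes. The annexin genes Anxa1 (0.43) and Anxa5 (0.50) rose, as did Cd69 (0.33), reported as a receptor of S100a8 and S100a9. Cd36, a scavenger receptor, fell by 0.88, and Bsg, which encodes basigin, fell by 0.46. Tlr4 (0.27, adjusted p = 0.0873, edgeR), Ager (0.08) and Anxa2, the annexin bound by S100a10 (0.22), did not pass the test. Of 9 myeloid regulators of S100 transcription only Cebpa was called, at 0.27 (adjusted p = 0.0436, edgeR; 2 genes without mouse BM-253), with the C/EBP family member Cebpe at 0.13 and Spi1, which encodes PU.1, at 0.25.

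Lists of cell type markers are read against the 5.38% of all genes with a gene-end peak that rose, the 26.3% that fell and their median of -0.13. Of 19 neutrophil genes with a peak, 10 rose and 0 fell, with a median log2 fold change of 0.34, and Ltf (0.77), Fpr2 (0.77) and Ngp (0.67) rose most. Their summed level was 461 to 513 CPM at 18 months and 346 to 383 CPM in 5 of the young mice, with mouse BM-253 at 495 CPM. Of 15 monocyte and macrophage genes 3 rose and 0 fell (median 0.22), and the sums were 199 to 227 CPM at 18 months and 194 to 222 CPM at 3 months. Of 19 erythroid genes 0 rose and 19 fell (median -0.96), from 1085 to 1399 CPM at 3 months to 696 to 758 CPM at 18 months, with mouse BM-253 at 1239 CPM among the young. Mouse BM-253 was the highest young library at 41.2% of all gene-end peaks. By list it was the highest at 15 of 19 neutrophil, 7 of 9 myeloid regulator, 10 of 15 B cell, 9 of 14 partner and receptor, 6 of 15 monocyte and macrophage, 4 of 13 T cell and 2 of 19 erythroid genes. Its B cell sum was 281 CPM, against 228 to 267 CPM in the other young mice. Of 13 T cell genes with a peak 2 rose and 1 fell (median 0.07), and of 15 B cell genes 0 rose and 2 fell (median -0.09; 1 rose without mouse BM-253). The B cell sums were 193 to 212 CPM in 18-month and 228 to 281 CPM in 3-month males, and 247 to 286 CPM in 18-month and 239 to 249.99 CPM in 3-month females, so the ages did not overlap in males and did in females; a difference between the sexes was not tested. The part of these cell types in the S100 values was not tested.

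**Figure D4:**
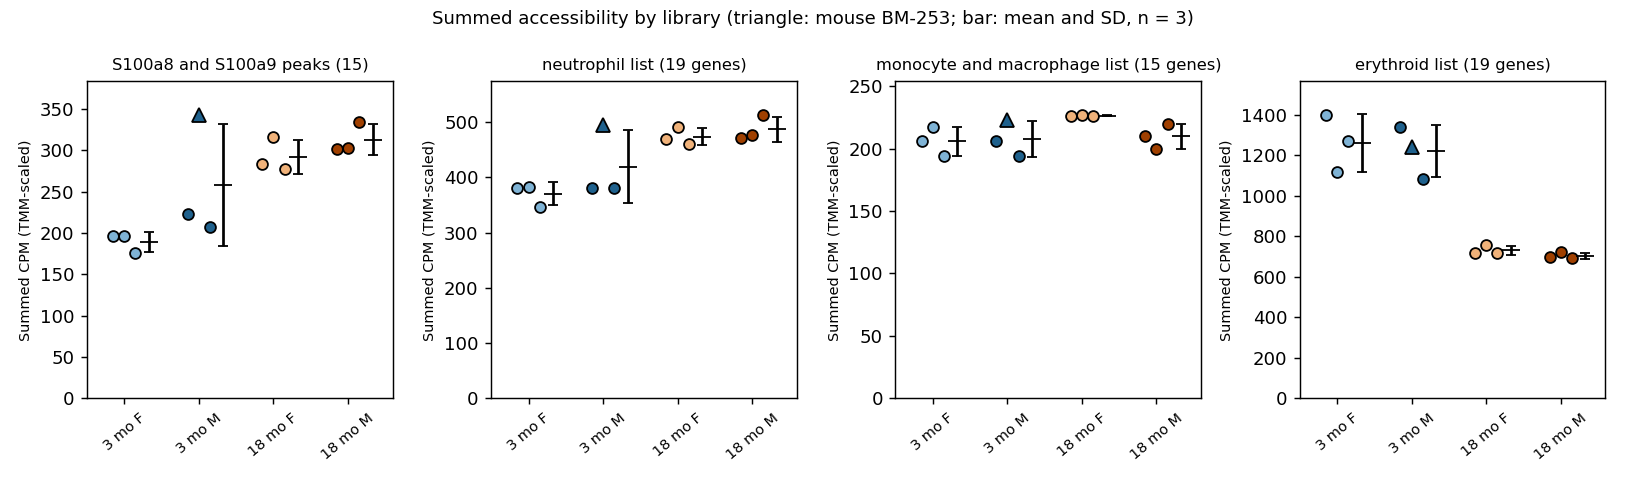
Summed CPM per library (TMM-scaled) over the 15 peaks of S100a8 and S100a9 and over the gene-end peaks of 3 marker lists, in the 4 groups of 3 mice; marks and bars are the mean and SD, and the triangle is mouse BM-253. In the S100a8 and S100a9 and the neutrophil panels the triangle stands at 343 and 495 CPM, near the 18-month mice, and in the erythroid panel at 1239 CPM it stands with the 3-month mice.

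The genes whose gene-end peaks varied most like S100a8 over the 12 libraries, among 15470 genes over 1 Mb away, were Tm6sf1 (Pearson r = 0.98), Cd84, Abcc8, Gm5150 and Crtac1 (r = 0.96 each). Those most like S100a9 were Arap1 (r = 0.96), Lrfn2 (0.95), Cyp4f18 (0.94), Trerf1 and Unc13b (0.93 each). S100a8 and S100a9 had r = 0.93 with each other, S100a8 and S100a6 0.81, and S100a8 and S100a10 0.35. These correlations describe 12 libraries that share the 2 ages and mouse BM-253, and they carry no test.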

How the data were processed

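The authors deposited 1 table of read counts per consensus peak for the 12 libraries. Per the submitters' processing notes, Trimmomatic, BWA, MACS2, DiffBind and edgeR were used with build mm10; their versions, order and settings, including any read shift or duplicate removal, are not given in the sources used here. The deposited values are whole numbers with a smallest value of 1 (985 values). Groups, sexes, mice and runs came from the labels. No library was left out, and 0 pairs of libraries held identical values. A floor of 3 counts corresponds to 0.235 to 0.391 CPM, below every value at the 29 peaks.

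Counts were fitted with edgeR 4.0.16 in R 4.3.3 (TMM factors, peaks above 1 CPM in at least 2 libraries, glmQLFit and glmQLFTest, Benjamini-Hochberg adjustment over 75164 peaks, threshold 0.05), with age and sex as terms, or with 1 mean per group for the effects within sexes and their interaction. Log2 fold changes are from that model, and differences between genes were tested by exact permutation. The SE of a log2 fold change was computed back from its test, as its absolute value divided by the square root of the F statistic. On simulated counts for the age comparison over 75164 peaks, 92 of 100 peaks changed by 1 on the log2 scale and 18 of 100 changed by 0.5 were recovered, with 5 false calls. The simulation changed far fewer peaks than were called in the data and held no run effect. It therefore does not give the share of real changes that the test would find at the S100 peaks. Alternatives were DESeq2 1.42.0 as the test, other scalings, filters, windows and covariates, and leaving out each library.

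The peaks named with full statistics are the gene-end peaks, the S100a9 start-site peak, and the called peaks with no overlap between ages. The members, gene lists and tests were chosen with earlier results of these data known. RefSeq tables for GRCm38 gave gene positions and promoter sequences; 5 of the 6 genes had a promoter entry.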

Additional observations from a re-analysis of the deposited data

Results flagged for a closer look

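At 2 gene-end peaks, 1 library lay far from the other 5 of its age, by a gap that was a larger share of the range of the 6 than Dixon's critical value allows. The S100a8 peak held 47.3 CPM in the 3-month male BM-253, where the next highest young library had 31.2 CPM and the lowest 21.8 CPM (gap over range 0.629). The S100a9 peak held 70.7 CPM in the same mouse, against 40.6 CPM in the next highest and 30.7 CPM in the lowest (gap over range 0.752). In all, 22 sets of 6 libraries were examined, and chance alone flags about 1 set in 20.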

How the results depend on the processing

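The number of S100 peaks called higher with age, 15 of 29, was 24 without the 3-month male BM-253 and 13 to 24 over the 12 single-library omissions, and 7 of 15 when only peaks within 5 kb of a gene were counted. Other scalings, filters, the wider window, no sex term and DESeq2 gave 14 to 19, and 0 fell in any setting. The 19 came with total counts, a scaling that also moved the median of the whole peak set from 0.02 to 0.10. That count is therefore not specific to the S100 peaks. The share of all peaks called was not computed for these settings. The same holds for the male and sex counts below that do not come from omissions. Within females the count of 15 ranged from 8 to 17 over the omissions, with 8 without the 3-month female BM-244. Within males the count of 8 was 4 with DESeq2, 3 with only male libraries in the fit and 5 with offsets smoothed on peak width, and 1 to 11 over the omissions. Interactions called numbered 0 to 4 over the omissions, 4 without the 3-month male BM-252. Peaks called for sex numbered 2 with offsets smoothed on abundance and 0 to 1 over the omissions. Pairs of genes that differed numbered 0 to 2 over the omissions, 2 without the 3-month female BM-243. With all peaks of each gene summed the count was 0, and the difference of S100a8 from S100a10 was 0.25 in place of 0.53, from S100a11 0.13 in place of 0.36 and from S100a9 0.08 in place of 0.23. The cause of these shifts was not tested. No paired analysis was possible because no mouse number is shared between groups and 0 runs hold both ages; the sexes share a run only at 3 months, in 2 runs, whose values are given with the sex comparison. Peaks as shallow as S100a4, at 24 to 56 counts per library, limit what a fold change of this size can show.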
